A study of Mus musculus with 15 samples.

Results

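Nuclear long noncoding RNAs (lncRNAs) and small nucleolar RNA (snoRNA) host genes were followed in mouse CD8+ T cells before and after antigen priming, with and without costimulation. The 10 genes were taken by name: Malat1 and Neat1, which are retained in the nucleus, and the snoRNA host genes Gas5, Snhg1, Snhg3, Snhg5, Snhg6, Snhg8, Snhg12 and Snhg15. They were 10 of 55536 annotated genes in the count table, and all 10 were among the 17366 genes tested. RNA was sequenced from OT-I CD8+ T cells, whose transgenic receptor recognises an ovalbumin peptide, on the C57BL/6J background, with 5 libraries in each of 3 groups. Naive cells came from OT-I mice and were not transferred. Ag cells were OT-I cells transferred into wild-type C57BL/6J recipients that received the SIINFEKL peptide with control rat IgG. Ag+Costim cells were transferred in the same way, and the recipients received the peptide with agonist antibodies against OX40 (CD134) and 4-1BB (CD137). The labels place collection of transferred cells from spleen and lymph nodes at day 4, followed by sorting. The study's methods give a slightly earlier time, Rag1- or Rag2-deficient OT-I donors, a sort on CD8, CD45.1, Vα2 and Vβ5, and adult mice of both sexes with no age or sex by group. Transfer into a recipient and exposure to peptide cannot be told apart in the comparisons with Naive. The study describes each library as a separate biological replicate, from 1 of its repeated experiments.

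Malat1 is an abundant RNA of nuclear speckles, where splicing factors are stored, and Neat1 is the scaffold of paraspeckles, nuclear bodies that hold RNA-binding proteins. SnoRNA host genes carry snoRNAs in their introns. The spliced host RNA is often exported, translated briefly and removed by nonsense-mediated decay, while the snoRNA released from the intron guides chemical modification of ribosomal RNA. Box C/D snoRNAs guide methylation and box H/ACA snoRNAs guide pseudouridylation. Several hosts, Gas5 among them, are known for a terminal oligopyrimidine start like that of ribosomal protein genes, and Gas5 RNA is known to accumulate in resting lymphocytes.

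GENCODE M21 placed 30 snoRNAs inside 8 of the 10 genes, with 10 in Gas5, 8 in Snhg1, 5 in Snhg12, 2 each in Snhg3 and Snhg5, and 1 each in Snhg6, Snhg8 and Snhg15. Snord80 in Gas5 and Snora16a in Snhg12 are each annotated under more than 1 overlapping entry, and every entry is counted here and below. Both snoRNA classes occurred among the hosts whose level differed between groups, and 4 of these snoRNAs are shown as the DNA letters of the GENCODE M21 transcripts (GRCm38), read on the strand of the host. Capitals mark the C box (TGATGA, within the first 20 bases) and the D box (CTGA, within the last 20 bases) of the box C/D snoRNAs Snord47 (in Gas5, chr1:161038082-161038158, plus strand) and Snord99 (in Snhg12, chr4:132310691-132310764, plus strand). In the box H/ACA snoRNAs Snora24 (in Snhg8, chr3:123507937-123508066, minus strand) and Snora9 (in Snhg15, chr11:6528033-6528165, minus strand), capitals mark the ACA within the last 10 bases.
Snord47: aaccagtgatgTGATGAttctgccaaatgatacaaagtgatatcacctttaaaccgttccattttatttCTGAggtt
Snord99: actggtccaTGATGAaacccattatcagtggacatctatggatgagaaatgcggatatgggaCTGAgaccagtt
Snora24: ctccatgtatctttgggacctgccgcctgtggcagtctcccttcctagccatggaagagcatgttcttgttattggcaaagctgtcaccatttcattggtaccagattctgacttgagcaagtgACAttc
Snora9: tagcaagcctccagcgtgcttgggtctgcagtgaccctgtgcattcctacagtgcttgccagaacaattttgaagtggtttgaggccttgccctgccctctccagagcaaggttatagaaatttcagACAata
Among the 21 of these snoRNAs with at most 100 bases, 18 held the C box and 21 the D box in these windows, against 67.5% and 83.7% of 459 annotated snoRNA transcripts of that length, and of the 9 longer ones 7 ended in the ACA, against 63.2% of 1048. This split is by length and not by class, and Snord22 in Snhg1 (126 bases) is among the longer ones. Only the transcribed strand was searched. The snoRNAs themselves were close to absent from the counts. Of the 30, 28 had at most 3 counts in every library and 15 had a count of exactly 1 in all 15 libraries, and none passed the filter on low counts. A value of 1 in every library, whatever its depth, may come from rounding in the conversion of coverage to counts and is not read here as a detected snoRNA. Snora73b in Snhg3 reached 11 counts and Snord87 in Snhg6 reached 13. The labels describe the libraries as poly(A) RNA, and mature snoRNAs carry no poly(A) tail, so the values below describe the host transcripts and not the snoRNAs.

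The start of transcription was compared next, because a pyrimidine run at the start is the sequence feature the host family is known for. The start sequences were taken from RefSeq (GRCm38.p6), which listed 9 starts for 8 of the 10 genes. A run was counted where 5 or more consecutive bases were all C or T, beginning with C, within 15 bases of the start on the transcribed strand. It was present at 5 of the 9 starts (55.6%), against 36.4% of 32851 starts in the whole table and 59.1% of 66 starts of ribosomal protein genes. Each line below holds the 20 bases before the start and the 30 bases from it, with the run in capitals. Gas5 (second listed start, chr1:161035146-161035195, plus strand), Snhg8 (chr3:123508307-123508356, minus strand) and Snhg12 (chr4:132308658-132308707, plus strand) held a run. Snhg15 (chr11:6528731-6528780, minus strand) and Malat1 (chr19:5802643-5802692, minus strand) held none.
Gas5: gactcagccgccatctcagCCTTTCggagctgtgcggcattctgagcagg
Snhg8: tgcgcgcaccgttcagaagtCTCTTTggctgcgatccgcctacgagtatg
Snhg12: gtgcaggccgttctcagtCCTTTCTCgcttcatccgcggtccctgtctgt
Snhg15: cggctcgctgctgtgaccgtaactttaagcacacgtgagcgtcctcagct
Malat1: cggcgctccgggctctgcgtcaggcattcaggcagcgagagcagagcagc
The run occurred in hosts that were lower in Ag+Costim (Gas5, Snhg8 and Snhg12) and in hosts that were not called there (Snhg3 and Snhg5). It was absent at the starts of Snhg15, which was lower, and of Snhg1, which was not called, and at the first listed start of Gas5. Relative to the listed start, the run began at -1, 0 and -2 in Gas5, Snhg8 and Snhg12, but at 2 and 9 in Snhg3 and Snhg5. A run in these letters is a description and not evidence of a functional start.

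Total counts ranged from 4865952 (Ag 3) to 25280667 (Naive 3), and the 10 genes together took from 0.0515% to 0.693% of the counts of a library. All 7 CD8+ T cell markers, which included Cd8a, Cd8b1, Cd3e and Lck, were detected in every library, with summed levels of 4788 to 8824 CPM (counts scaled to the same library size by TMM). Ag 3 stood apart, with 16.9% of its reads counted in genes. Its summed markers were 412 CPM for 6 B cell genes and 1311 CPM for 6 erythroid genes, and 4 of 5 tested B cell genes were higher in Ag than in Naive, whose part in the results was not tested. Between Ag+Costim and Naive, 4 of the 7 CD8+ T cell markers were lower (median log2 fold change of the list -0.54), 1 of 7 myeloid markers was higher (median 1.36) and 1 of 5 tested B cell markers was higher (median 2.04). Most calls among the 10 genes came from that comparison, and the part of these markers in them was not tested. Ag 2 and Ag 5 also departed from their group, and their recorded input amounts were 1.4 and 1.8 (unit not stated) against 7 to 10 in all others. The Ag group split over all tested genes. On the first principal component of log2 CPM (53.3% of the variance), Ag 2 and Ag 5 stood at 87.8 and 109, near Ag+Costim (67.8 to 92.1). Ag 1, 3 and 4 stood at -75.7, -69.4 and -56.8, on the side of Naive 1 to 4. Naive 5 had the lowest level of the Naive libraries in 9 of the 10 genes. This library also stood apart over all tested genes, at 2.03 on the same component against -113 to -74.3 for Naive 1 to 4. The share of all genes that were lowest in Naive 5 was not counted. All Ag libraries were sequenced in lane 2 and all Naive libraries in lane 3, with Ag+Costim in both, so lane and group cannot be told apart between Ag and Naive libraries alone. As these are bulk samples, fewer cells of a type and less RNA per cell cannot be told apart.

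Malat1 was the most abundant of the 10 genes in every group, and its level was lowest and tightest in Ag+Costim. It lies on the minus strand at chr19:5795690-5802672, and its counts fell almost wholly on a transcript of a single exon, Malat1-201. In Naive libraries 1 to 5 its level was 5790, 4855, 2134, 5648 and 1021 CPM. In Ag libraries 1 to 5 it was 3327, 768, 806, 3071 and 457 CPM, and in Ag+Costim libraries 1 to 5 it was 485, 418, 390, 242 and 353 CPM. Every Ag+Costim library was below every Naive library, and Ag libraries fell into a high pair (1 and 4) and 3 lower ones that lay nearer to Ag+Costim. Malat1 was lower in Ag+Costim than in Naive by a log2 fold change of -3.36 (SE 0.61, edgeR adjusted p = 0.00322). Between Ag+Costim and Ag the log2 fold change was -2.16 (SE 0.58, edgeR adjusted p = 0.0807), which did not pass the threshold of 0.05 with all libraries. The adjusted p depended on the setting. It was 0.0325 without Ag 2 and 0.0216 without Ag 5, the low-input libraries, and 0.00393 with DESeq2, settings that also called 14.8%, 19.7% and 20.5% of all genes in this comparison. It was 0.133 with only the libraries of the comparison, 0.114 without a filter on low counts, 0.355 with lane as a term and 0.628 within lane 2, while the log2 fold change stayed between -2.19 and -1.96 in these 4 fits. Between Ag and Naive the log2 fold change was -1.21 (SE 0.56, edgeR adjusted p = 0.172).

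Neat1 lies on the minus strand at chr19:5824708-5845478, close to Malat1 on the same chromosome. Its levels were 221, 121, 86.9, 176 and 55.2 CPM in Naive 1 to 5. They were 64.2, 30.04, 42.03, 63.2 and 8.8 CPM in Ag 1 to 5, and 38.6, 33.6, 21.9, 15.1 and 27.7 CPM in Ag+Costim 1 to 5. All Ag+Costim libraries lay below all Naive libraries, and 3 of 5 Ag libraries did. Neat1 was lower in Ag+Costim than in Naive (log2 fold change -2.27, SE 0.49, edgeR adjusted p = 0.00595). The Ag vs Naive difference stood at the threshold (log2 fold change -1.66, SE 0.48, edgeR adjusted p = 0.0504), and the Ag+Costim vs Ag difference did not pass (-0.60, SE 0.47, edgeR adjusted p = 0.414). Malat1 and Neat1 varied together from library to library, with a Pearson correlation of log2 CPM of 0.90 over 15 libraries and 0.88 about the group means. These points share library preparation. The log2 CPM of both genes also followed, in part, the percent of reads aligned (r = 0.67 for Malat1 and 0.73 for Neat1, and 0.64 for Snhg12). With the percent of reads counted in genes, r was -0.49, -0.48 and -0.59 for these genes, and -0.08, -0.09 and -0.08 for Gas5, Snhg8 and Snhg15. Ag+Costim and Naive libraries did not overlap in either measure. They stood at 57.0 to 58.7% against 59.8 to 62.6% aligned, and at 51.9 to 52.7% against 38.2 to 46.8% counted. The part of these measures in the calls between these groups was not tested.

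**Figure D1:**
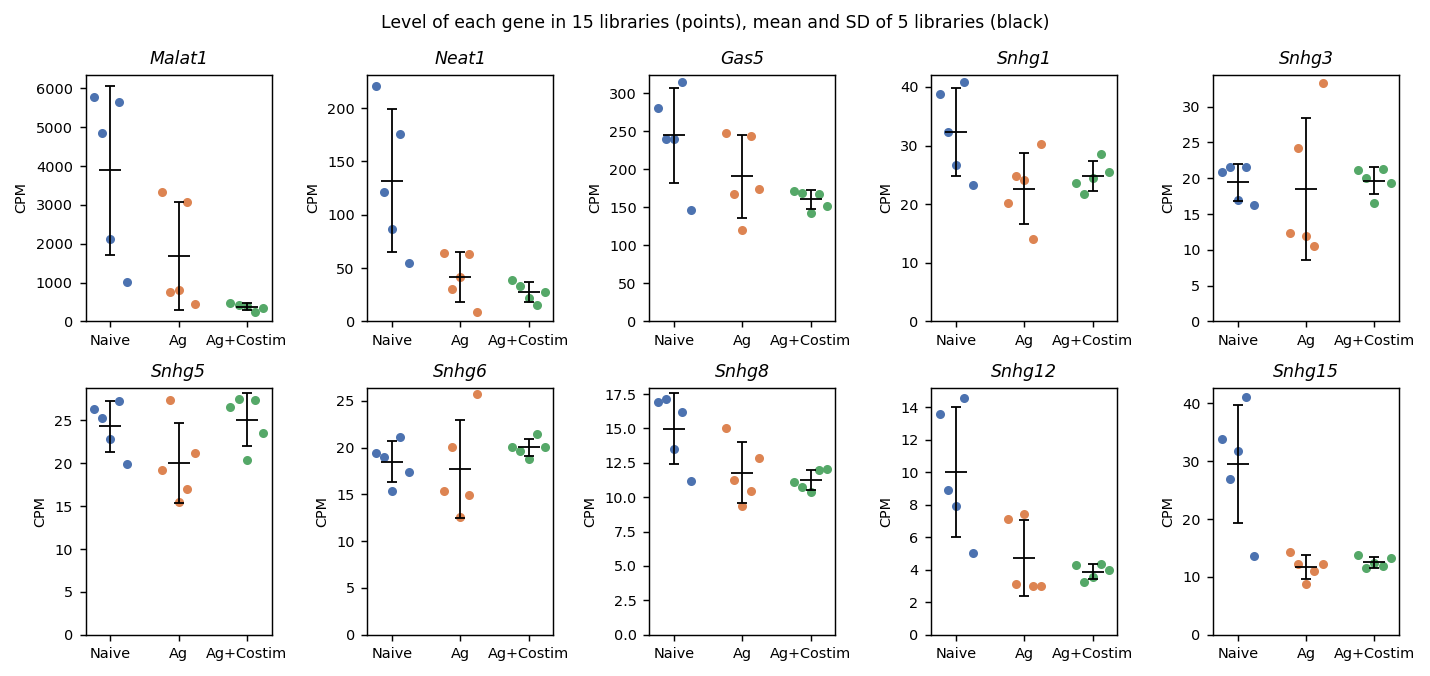
Level of each of the 10 genes in CPM (linear axis from 0) in the 5 Naive, 5 Ag and 5 Ag+Costim libraries, with 1 point per library and the mean and SD in black. Malat1, Neat1 and Snhg12 show no overlap between Ag+Costim and Naive, as do 45% of all tested genes. Snhg3 and Snhg6 spread most in Ag, and Ag+Costim libraries lie close together.

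Among the snoRNA hosts, Snhg15 and Snhg12 showed the largest differences. Snhg15 (chr11:6525591-6528760, minus strand) hosts Snora9. Its levels were 33.9, 26.97, 31.8, 41.1 and 13.6 CPM in Naive 1 to 5, then 14.3, 12.2, 8.7, 11.03 and 12.3 CPM in Ag 1 to 5, and 13.8, 11.5, 12.4, 11.8 and 13.2 CPM in Ag+Costim 1 to 5. Naive 5 fell at the level of the antigen-exposed libraries and the other 4 Naive libraries were above all of them. Snhg15 was the only member called in Ag vs Naive (log2 fold change -1.33, SE 0.23, edgeR adjusted p = 0.00895), and it was also lower in Ag+Costim than in Naive (-1.23, SE 0.23, edgeR adjusted p = 0.00346). Ag+Costim and Ag differed by 0.09 (SE 0.23, edgeR adjusted p = 0.809). The Ag vs Naive call was lost when the 10 libraries of the comparison were fitted alone (adjusted p = 0.119) and with lane as a term (adjusted p = 0.609), at nearly the same log2 fold change.

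Snhg12 (chr4:132308623-132311024, plus strand) hosts Snora16a, Snora44, Snora61 and Snord99. Its levels were 13.6, 8.9, 7.9, 14.6 and 5.1 CPM in Naive 1 to 5, 7.1, 3.1, 7.4, 3.0 and 3.0 CPM in Ag 1 to 5, and 4.3, 3.3, 3.6, 4.3 and 4.0 CPM in Ag+Costim 1 to 5. Ag+Costim lay below every Naive library, while Ag overlapped both groups. It was lower in Ag+Costim than in Naive (log2 fold change -1.36, SE 0.33, edgeR adjusted p = 0.00978), and the Ag vs Naive difference of -1.10 (SE 0.33) had an edgeR adjusted p of 0.0605. Its counts were the lowest of the 10 genes, from 34 to 212 reads a library.

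Gas5 (chr1:161034422-161038539, plus strand), with 10 snoRNA entries annotated inside it, was the second most abundant member per length. It was at 280, 240, 241, 315 and 147 CPM in Naive 1 to 5, at 247, 168, 121, 243 and 174 CPM in Ag 1 to 5, and at 172, 168, 143, 167 and 152 CPM in Ag+Costim 1 to 5. Naive 5 reached the level of Ag+Costim, while the other 4 Naive libraries were above every Ag+Costim library. Gas5 was lower in Ag+Costim than in Naive by a log2 fold change of -0.61 (SE 0.21, edgeR adjusted p = 0.0317). That call held in 2 of the 10 fits that each left out 1 library of the comparison.

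Snhg8 (chr3:123507552-123508404, minus strand, host of Snora24) was at 16.9, 17.1, 13.5, 16.2 and 11.2 CPM in Naive 1 to 5. It was at 15.07, 11.2, 9.36, 10.5 and 12.8 CPM in Ag 1 to 5 and at 11.1, 10.7, 10.4, 12.003 and 12.02 CPM in Ag+Costim 1 to 5. Naive 5 lay inside the Ag+Costim range and the other 4 Naive libraries lay above it. Snhg8 averaged 14.97 ± 2.57 CPM (SD, n = 5) in Naive and 11.26 ± 0.737 CPM in Ag+Costim, and it was lower in Ag+Costim (log2 fold change -0.41, SE 0.16, edgeR adjusted p = 0.0442), and that call held in 1 of the 10 such fits.

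Snhg1, Snhg3, Snhg5 and Snhg6 were not called in any comparison in the fit of all 15 libraries with TMM scaling. Snhg1 (chr19:8723475-8726443, plus strand), host of 8 snoRNAs with Snord22 among them, averaged 32.4 ± 7.50 CPM in Naive, 22.7 ± 6.02 CPM in Ag and 24.8 ± 2.53 CPM in Ag+Costim (SD, n = 5 each). Its log2 fold change was -0.38 in Ag+Costim vs Naive (SE 0.20, edgeR adjusted p = 0.117) and -0.51 in Ag vs Naive (SE 0.20, edgeR adjusted p = 0.113). Between Ag+Costim and Naive it passed with library totals as the only scaling (-0.55, adjusted p = 0.0289) and when that comparison was fitted alone (-0.44, adjusted p = 0.0342). These 2 settings called 46.7% and 64.8% of all genes there. Snhg5 (chr9:88521050-88522929, minus strand), host of Snord50a and Snord50b, had group means of 24.35, 20.03 and 25.09 CPM in Naive, Ag and Ag+Costim. Its log2 fold change of 0.32 in Ag+Costim vs Ag (SE 0.16) had an edgeR adjusted p of 0.205, and without Ag 2 it was 0.56 (adjusted p = 0.0419). Ag 2 was the highest Ag library for Snhg5, at 27.4 CPM, and the other 4 lay between 15.5 and 21.2 CPM.

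Snhg3 (chr4:132348014-132353686, minus strand) hosts the box H/ACA snoRNAs Snora73a and Snora73b, and Snhg6 (chr1:9941959-9944118, minus strand) hosts Snord87. Their group means lay close together, from 18.5 to 19.7 CPM for Snhg3 and from 17.74 to 20.01 CPM for Snhg6. Within Ag, however, Snhg3 was at 12.4, 24.3, 11.98, 10.6 and 33.2 CPM and Snhg6 at 15.3, 20.1, 12.6, 14.9 and 25.7 CPM in libraries 1 to 5. Ag 2 and Ag 5, the libraries with the lowest input, were the highest for both genes. Across the 15 libraries, the log2 CPM of Snhg3 and Snhg6 had correlations of -0.59 and -0.45 with log2 input, of -0.70 and -0.79 with the percent of reads aligned, and of 0.55 and 0.71 with the percent of reads counted in genes. The part of these library measures was not tested. Snhg3 and Snhg6 had the highest correlation of any pair of members (r = 0.91 over 15 libraries, 0.92 about the group means). Snhg3 shares exons on the same strand with Rcc1, a regulator of the nuclear GTPase Ran, and Snhg6 overlaps exons of Mcmdc2 on the opposite strand. The lncRNA gene Gm17300 also overlaps exons of Snhg3, on the opposite strand, and was not called in Ag+Costim vs Naive (0.46, edgeR adjusted p = 0.183). Reads of genes with shared exons on the same strand could be split between them. Since the library kit does not mark strand, this also holds for overlaps on opposite strands. Rcc1 was higher in Ag+Costim than in Naive (194 ± 20 against 58.8 ± 42 CPM, log2 fold change 1.72, SE 0.50, edgeR adjusted p = 0.0178), while the Snhg3 log2 fold change was 0.02 (SE 0.27).

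**Figure D2:**
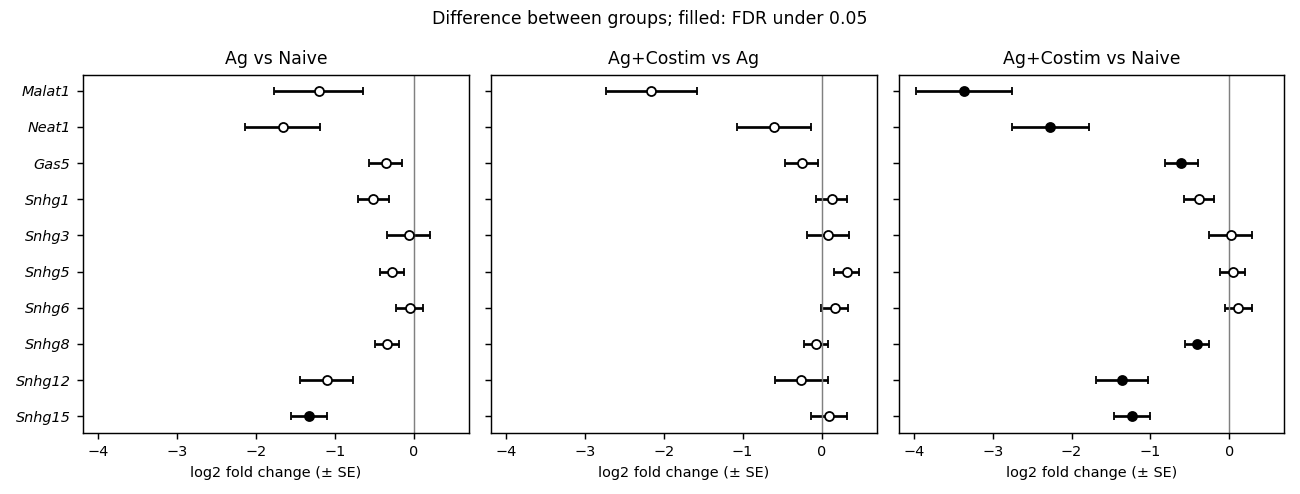
Log2 fold change with its standard error for the 10 genes in the 3 comparisons, filled where the edgeR adjusted p is under 0.05. In Ag+Costim vs Naive, 6 genes are filled and lie left of 0, where 44.7% of all tested genes were called. In Ag vs Naive only Snhg15 is filled (6.71% of all genes), and in Ag+Costim vs Ag none is (0.0346%).

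Counted together, 1 of 10 genes was called in Ag vs Naive, where 6.71% of all tested genes were called and 3.66% were called lower. All 10 log2 fold changes were below 0 (median -0.44), while 55.8% of all genes were above 0 and their median was 0.08. No member was free of overlap between Ag and Naive, against 3.85% of all genes. In Ag+Costim vs Ag, 0 of 10 were called by edgeR, where 0.0346% of all genes were called. At an unadjusted p under 0.05, 1 member (Malat1) passed against 26.8% of all genes, and DESeq2 called 1 (Malat1) and 20.5% of all genes. In that comparison no member was free of overlap, against 6.33% of all genes. In Ag+Costim vs Naive, 6 of 10 were called, all lower, where 44.7% of all genes were called, 23.6% lower and 21% higher. The median was -0.51 over the members and -0.08 over all genes, and 3 of 10 members did not overlap against 45% of all genes. The 2 comparisons with Naive share the Naive libraries and are not independent. Within lane 3, which held Ag+Costim 4 and 5 and all 5 Naive libraries, 3 of the 6 were called, against 34.7% of all genes. These were Malat1 (log2 fold change -3.71, adjusted p = 0.0260), Neat1 (-2.63, adjusted p = 0.0275) and Snhg15 (-1.24, adjusted p = 0.0485). With lane as a term 2 were called, Malat1 and Snhg15, against 5.43% of all genes. The log2 fold changes of the 4 that lost the call with that term were -2.62 for Neat1, -1.27 for Snhg12, -0.62 for Gas5 and -0.32 for Snhg8. Without Ag 3 and Naive 5, the same 6 were called in Ag+Costim vs Naive (58.5% of all genes), 3 in Ag vs Naive (Neat1, Snhg12 and Snhg15, with 22.9% of all genes) and 1 in Ag+Costim vs Ag (Malat1, with 5.73% of all genes).

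Levels were then compared between members as CPM per kilobase of exon. Malat1 stood at 557 ± 312 CPM per kilobase for Naive, 241 ± 199 for Ag and 54.1 ± 12.8 for Ag+Costim (SD, n = 5 each). Gas5 followed at 65.0 ± 16.7, 50.7 ± 14.4 and 42.7 ± 3.30 CPM per kilobase. The ranges of Malat1 and Gas5 were apart in Naive libraries and overlapped in both antigen-exposed groups. The remaining hosts except Snhg12 averaged 7.63 to 21.7 CPM per kilobase across the groups, and most neighbours in that order overlapped. Neat1 and Snhg12 were the lowest pair in each group. The Neat1 value was divided by 20771 exon bases, the length of its longest transcript, and its shorter annotated transcripts lie within that span. Its level per kilobase therefore depends on which form the reads came from. Snhg15 was the third in Naive and the seventh in both antigen-exposed groups. The coefficient of variation was lowest in Ag+Costim for 9 of the 10 genes, and it was 7.74% for Gas5 there against 25.7% in Naive and 28.3% in Ag. Ag+Costim libraries also lay close together over all genes. The chi-square over its degrees of freedom between pairs of libraries was 5.62 to 24.1 in Ag+Costim, 8.70 to 249 in Ag and 10.8 to 181 in Naive. The share of all genes with their lowest variation in Ag+Costim was not counted.

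Which transcripts made up each host was read from the transcript table. The 10 genes had 84 annotated transcripts, of which 50 transcripts of 8 genes passed the filter for a test of transcript usage. Malat1 and Neat1 had fewer than 2 transcripts past that filter, since 1 transcript each held nearly all counts, and without the filter all 10 genes were tested and 0 were called. The unspliced Neat1-201 of 20771 bases carried 97.1% of the Neat1 count over all libraries. The other annotated Neat1 transcripts have 2 to 4 exons, so a short unspliced Neat1 RNA would also be counted on Neat1-201. This share therefore does not measure the long form. How fully poly(A) libraries capture Malat1 and Neat1 was not tested. Gas5 counts fell mostly on transcripts annotated as retained intron, at 94.9 ± 1.57% for Naive libraries, 89.2 ± 5.21% for Ag libraries and 93.99 ± 1.35% for Ag+Costim libraries. For Snhg1 this share was 68.8 ± 8.02%, 56.03 ± 14.7% and 56.2 ± 12.96% in the same order, and for Snhg5 it was 66.2 ± 9.13%, 61.2 ± 10.03% and 52.6 ± 3.05%. Snhg8 had less of its count on its retained-intron transcript, with 19.7 ± 4.81%, 18.7 ± 10.8% and 26.3 ± 5.67% (SD, n = 5 in each group, as for the other genes). The groups overlapped in all 4 genes. The label is carried by 20 of 25 annotated transcripts in Gas5, 14 of 18 in Snhg1, 3 of 6 in Snhg5 and 1 of 3 in Snhg8. Spliced forms carry it too, such as Gas5-213 with 759 bases in 10 exons, so the share does not measure unspliced RNA. Per the labels the reads were 50 bases long, and short reads assign counts among overlapping transcripts with limited certainty.

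**Figure D3:**
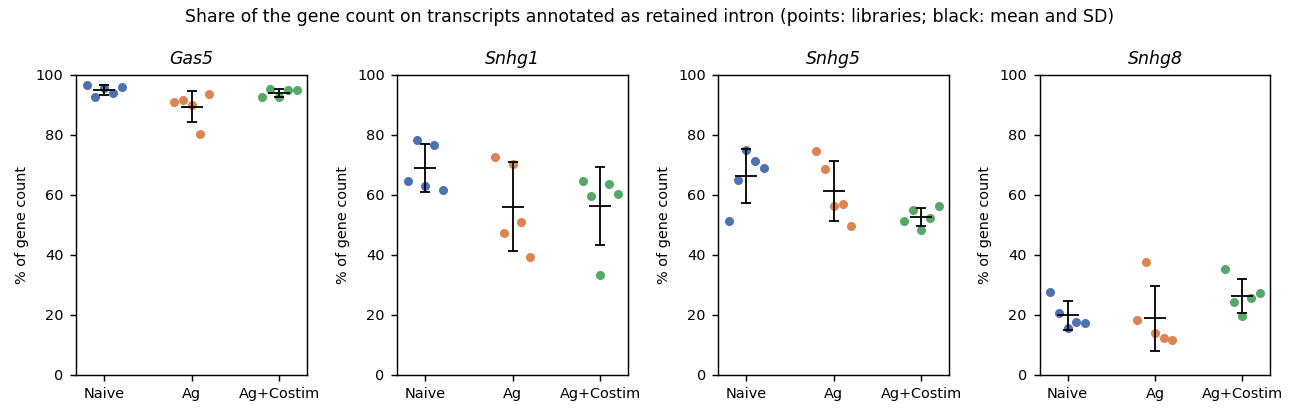
Percent of the gene count on transcripts annotated as retained intron for Gas5, Snhg1, Snhg5 and Snhg8, with 1 point per library and the mean and SD of 5 libraries in black. Gas5 stays between 80.2% and 96.6% in all libraries, and the 3 groups overlap in each gene.

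No member was called for transcript usage by edgeR (diffSpliceDGE), in which a call needed an adjusted p under 0.05 for the gene and a transcript and a mean share change of at least 0.1. The counts were 0 of 8 in Ag vs Naive, where 0.96% of 7501 genes were called, 0 of 8 in Ag+Costim vs Ag, where 1.03% were, and 0 of 8 in Ag+Costim vs Naive, where 6% were. At an unadjusted gene p under 0.05, 0 members passed in each comparison against 14%, 17.8% and 35.9% of genes, and limma's diffSplice also called 0. The lowest adjusted gene p among members was 0.218, in Ag+Costim vs Naive, for Snhg15. Its transcript Snhg15-202 held 0.25, 0.15, 0.20, 0.19 and 0.08 of the gene count in Naive 1 to 5 and 0.07, 0.14, 0.05, 0.03 and 0.05 in Ag+Costim 1 to 5, and the ranges overlapped through Naive 5.

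A list of other snoRNA host lncRNAs gave calls in the same direction as the members. The members and the lists were chosen with earlier results of these data known, so a shared direction is not independent support. The counts of all lists in Ag+Costim vs Naive stand beside 23.6% of all genes lower and 21% higher. Of 9 tested, 6 were lower in Ag+Costim than in Naive and 0 were higher (median log2 fold change -1.16, all genes -0.08), and 4 were lower in Ag than in Naive. Snhg20 averaged 50.8 CPM in Naive and 16.7 CPM in Ag+Costim (log2 fold change -1.60, SE 0.31, edgeR adjusted p = 0.00398) and Snhg17 averaged 27.1 and 9.52 CPM (-1.51, SE 0.27, edgeR adjusted p = 0.00306). Of 26 noncoding genes besides the members with a snoRNA inside them in the annotation, 9 were lower and 4 were higher. These 26 include Snhg20 and Snhg17, so the lists overlap and their counts are not separate. Among the higher genes were AI506816 (log2 fold change 1.13, edgeR adjusted p = 0.0235) and 1110038B12Rik (0.50, edgeR adjusted p = 0.0314). Of 226 protein-coding hosts 49 were lower and 51 were higher, which is near the shares over all genes. Of 12 other lncRNAs, 2 were lower (Kcnq1ot1, an imprinting regulator, and Jpx, an activator of Xist) and 1 was higher (Gm14005, the symbol of Morrbid here, which acts on the death gene Bcl2l11).

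Genes for protein partners of these RNAs were called in the opposite direction in part of the lists, which were also chosen with earlier results known. Of 14 paraspeckle proteins, 9 were higher in Ag+Costim than in Naive and 0 were lower (median log2 fold change 0.61). Nudt21, a subunit of a cleavage factor for polyadenylation, was at 189 against 94.2 CPM (log2 fold change 1.00, SE 0.28, edgeR adjusted p = 0.0143), and Pspc1, a core paraspeckle protein, at 71.2 against 37.7 CPM (0.92, SE 0.19, edgeR adjusted p = 0.0056). Of 10 nuclear speckle proteins, 2 were higher (Srsf3 and Rnps1) and 3 were lower (Srrm2, Son and Pnn), which is also near those shares, with Son at 228 against 405 CPM (log2 fold change -0.83, SE 0.22, edgeR adjusted p = 0.0133). Of 11 proteins of box C/D particles or their assembly, 7 were higher and 0 lower (median 0.71). Nop58, a core protein of these particles, was higher in Ag+Costim than in Ag as well (249 against 112 CPM, log2 fold change 1.14, SE 0.18, edgeR adjusted p = 0.0481). No gene was called in Ag+Costim vs Ag when that comparison was fitted alone, with a replicate block or with lane as a term, so the Nop58 call was lost there. Of 6 box H/ACA proteins only Gar1 was called (higher, 0.83). Of 10 factors of nonsense-mediated decay, 4 were lower (Smg1, Upf2, Smg6 and Smg9) and 0 were higher. Among 76 ribosomal protein genes, 14 were lower and 1 was higher, with a median of -0.08.

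**Figure D4:**
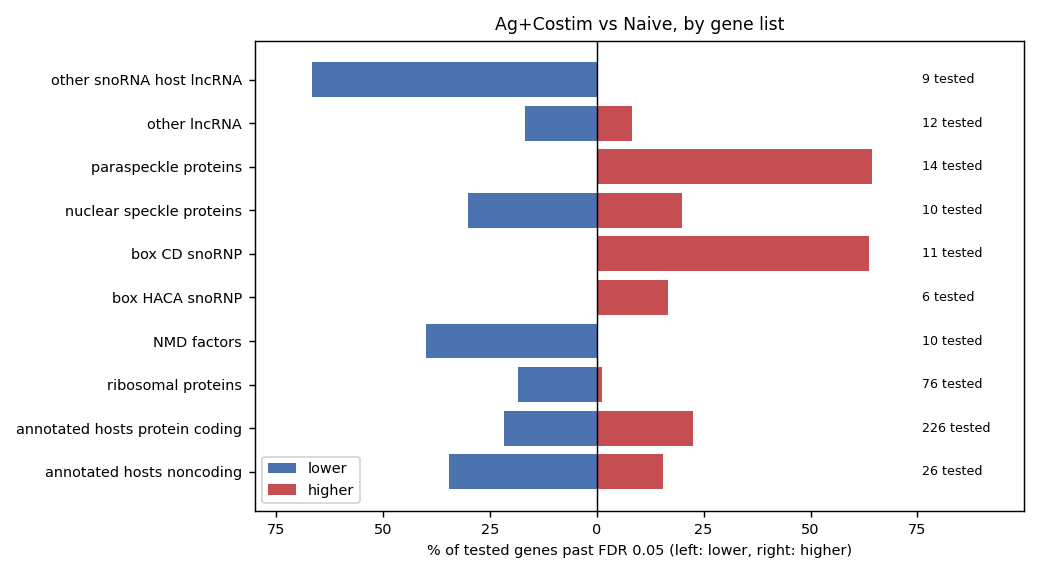
Percent of the tested genes of each list past an edgeR adjusted p of 0.05 in Ag+Costim vs Naive, lower to the left and higher to the right, with the number tested at the right. Other snoRNA host lncRNAs are called in the lower direction (6 of 9), while paraspeckle (9 of 14) and box C/D (7 of 11) proteins are called in the higher direction. Over all tested genes, 23.6% were lower and 21% higher. The lists were chosen with earlier results of these data known.

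Genes next to the members were read for comparison. Zbtb37, a zinc finger gene that starts 427 bases from Gas5 on the opposite strand, was lower in Ag+Costim than in Naive (5.4 against 11.2 CPM, log2 fold change -1.04, SE 0.38, edgeR adjusted p = 0.0407). Slc3a2, the heavy chain of an amino acid transporter, starts 106 bases from Snhg1 on the opposite strand and differed by -0.19 on the log2 scale, which did not pass (SE 0.15, edgeR adjusted p = 0.299).

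By Pearson correlation of log2 CPM over 15 libraries, among 9745 genes of at least 10 CPM on average, the profile of Malat1 was most like Znrf2 (r = 0.98), that of Neat1 most like Dmtf1 (0.98), and that of Gas5 most like Arfrp1 (0.98). Snhg15 was nearest to Dph5 (0.98), Snhg12 to Yae1d1 (0.94) and Snhg1 to Pcgf5 (0.92). Snhg3 was nearest to Clpp (0.97) and Snhg6 to Snhg3 (0.91), while Snhg8 was nearest to the pseudogene Gm32899 (0.95) and Snhg5 to Trmt61b (0.84). These correlations are descriptions over libraries that share groups, depth and preparation.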

How the data were processed

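Bulk RNA-seq of 15 libraries was analysed. Per the labels, RNA was extracted with a miRNeasy Micro kit and made into libraries with SMART-Seq v4 and Nextera XT, which do not mark strand, and read as single reads of 50 bases. The submitters' processing notes name HISAT2 2.1.0, SAMtools 1.9, StringTie 2.1.0, R 4.0.5, DESeq2 1.30.1 and the mm10 build. The deposited gene and transcript tables hold estimated counts (whole numbers, not normalised) that the authors obtained with StringTie, and the annotation release was not given in the sources used here. The deposited quality table gives the sequenced read count and the percent of reads aligned. The deposited FPKM table was not used, since the columns of Ag 1 and Naive 5 were identical.

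Of 81881 gene entries, 55536 matched GENCODE M21 by identifier. A further 26248 entries named by a number alone and 97 others, 0.0818% of counts, were left out. Group differences came from edgeR 4.0.16, run under R 4.3.3 (filterByExpr, TMM, robust quasi-likelihood fit with 1 coefficient per group over 15 libraries), with Benjamini-Hochberg adjusted p-values over 17366 genes and a threshold of 0.05. CPM were TMM-scaled. The SE is the absolute log2 fold change divided by the square root of F. Transcript usage was tested with diffSpliceDGE. Total counts ranged from 4865952 to 25280667. Libraries of a group differed beyond sampling noise (chi-square over its degrees of freedom at least 5.62), and each was kept as its own sample. On simulated counts for Ag vs Naive (17173 genes), 9 of 100 genes changed 2-fold and 85 of 100 changed 4-fold were recovered, and 199 of 200 genes with swapped transcripts (6098 genes) were. In each simulation all genes had the same spread. The swapped genes were picked for a high leading count and a much lower second transcript, and the 2 shares were exchanged in full. Their recovery does not show the power for smaller changes in members with few counts, such as Snhg12-206 with 381 over all libraries.

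The members and gene lists were chosen with earlier results of these data known. All 10 members are named. From each list up to 3 genes in each direction past the threshold, at 5 CPM or more, could be named, with genes that overlap a member or start within 2000 bases of it and the best correlated genes; further called genes of short lists were named after their values were seen. Alternatives were DESeq2 1.42.0, other scalings, no filter on low counts, the libraries of a comparison alone, a replicate block, lane, limma 3.58.1 for transcripts, leaving out each library and, chosen after seeing the data, leaving out Ag 3 and Naive 5 together.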

Additional observations from a re-analysis of the deposited data

How the results depend on the processing

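The same 6 members were called in Ag+Costim vs Naive with DESeq2, with its size factors in edgeR and without Ag 3 and Naive 5 together. These settings called 38.5%, 45.3% and 58.5% of all genes. Library totals alone and the comparison fitted alone each called 7 there (Snhg1 added), against 46.7% and 64.8% of all genes. No filter on low counts called 4 (Gas5 at an adjusted p of 0.322 and Snhg8 at 0.547 were lost), against 8.49% of all genes. With lane as a term 0 members were called in Ag vs Naive (0% of all genes) and 2 in Ag+Costim vs Naive (5.43%). In the fit within lane, 3 were called in the latter (34.7%). In Ag vs Naive, fitting only those libraries called 0 members (0.0358% of all genes). DESeq2 called 3 (Neat1, Snhg12 and Snhg15, with 15.5% of all genes), as did leaving out Ag 3 and Naive 5 (22.9%), a setting chosen after seeing the data. In Ag+Costim vs Ag, DESeq2 and that setting both called 1 (Malat1), against 20.5% and 5.73% of all genes. Leaving out 1 library gave 1 to 4 members in Ag vs Naive (4 without Naive 5, with 21.5% of all genes). It gave 0 to 2 for Ag+Costim against Ag (2 without Ag 2, with 14.8%) and 4 to 6 for Ag+Costim against Naive (21.6% to 51% of all genes). Replicate numbers did not pair the libraries (correlations of deviations from -0.32 to 0.47). A replicate block called 3 members in Ag vs Naive, 0 for Ag+Costim against Ag and 5 for Ag+Costim against Naive, with Malat1 at -1.67 (adjusted p = 0.146) for Ag+Costim against Ag. It called 9.56%, 0% and 45.1% of all genes in the same order. No transcript usage call appeared in any alternative.

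Members near 0 changed sign. In Ag+Costim vs Naive, Snhg3 was at -0.0090 with DESeq2, -0.013 with its size factors in edgeR, -0.14 with library totals alone and -0.040 with the comparison fitted alone. Snhg5 was at -0.12 with library totals and -0.015 fitted alone, and Snhg6 at -0.042 with library totals. Library totals also moved the median of all genes there from -0.08 to -0.23. Without a filter on low counts, Snhg8 and Snhg12 were at 0.17 and 0.084 in Ag+Costim vs Ag. With lane as a term, Snhg3 and Snhg6 were at 0.013 and 0.035 in Ag vs Naive, and without Ag 3 and Naive 5 at 0.05 and 0.078. Leaving out 1 library, Snhg3 ranged from -0.39 to 0.095 in Ag vs Naive, from -0.063 to 0.41 in Ag+Costim vs Ag and from -0.024 to 0.093 in Ag+Costim vs Naive. Snhg6 ranged from -0.23 to 0.05 in Ag vs Naive, Snhg8 from -0.14 to 0.027 in Ag+Costim vs Ag, and Snhg5 from -0.0049 to 0.13 in Ag+Costim vs Naive. The cause was not tested.

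Calls over all genes moved too. Ag vs Naive had 1165, against 2609 with DESeq2, 208 without a filter, 6 fitted alone, 0 with lane and 255 to 3871 leaving out 1 library (lowest without Naive 1, highest without Naive 5). Ag+Costim vs Ag had 6, against 5554 with DESeq2, 3 without a filter, 0 fitted alone, with the block or with lane, and 0 to 3573 leaving out 1 library (highest without Ag 5). Ag+Costim vs Naive had 7755, against 4158 without a filter, 943 with lane and 3892 to 9164 leaving out 1 library (lowest without Naive 4). Depth was lowest in Ag 3, where Snhg12 and Snhg15 had 34 and 40 counts.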
